A study of Mus musculus with 6 samples.

Results

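The first steps of T-cell receptor (TCR) signalling were examined in the chromatin of Beko cells through 9 genes, *Lck*, *Zap70*, *Lat*, *Lcp2*, *Fyn*, *Csk*, *Ptprc*, *Cd5* and *Cd6*. An accessible interval (peak) was assigned to a gene when it met the gene body or the 20 kb on either side of it in the GENCODE vM1 annotation of the mm9 build, and peaks within 1 kb of one of the gene's own transcription start sites (own-start peaks) were counted separately. By this rule the 9 genes held 51 of the 32527 peaks, and 13 of the 51 were own-start peaks. Beko cells are leukemia pre-T cells of the mouse, which the study describes as a progenitor T-cell line, and they signal constantly through Notch. ATAC-Seq, in which a transposase inserts sequencing adapters into open chromatin, was performed on 3 libraries of Beko cells kept for 24 h with DAPT, a γ-secretase inhibitor (GSI) that prevents release of the Notch intracellular domain, and on 3 libraries kept for 24 h with the solvent DMSO. No genotype differed between the groups, and all 6 libraries came from this single line. The peaks form 1 list merged over both treatments, without a value per library, so no value below has a replicate error and accessibility under GSI was not compared with DMSO here.

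When a TCR or pre-TCR is engaged, the Src-family kinases Lck and Fyn phosphorylate its CD3 and ζ chains, and the kinase Zap70 binds there and is activated. Zap70 then phosphorylates the membrane adaptor Lat and the cytosolic adaptor SLP-76, the product of *Lcp2*, on which the downstream enzymes assemble. The kinase Csk holds Lck and Fyn inactive by phosphorylating their C-terminal tyrosine, the phosphatase CD45, the product of *Ptprc*, removes that phosphate, and the surface receptors CD5 and CD6 tune the strength of the signal.

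All 9 genes had a peak at an own start, against 46.9% of the 22380 protein-coding genes. All 9 also had at least 2 peaks in the window, against 52.7% of coding genes. *Fyn* had 11 peaks, *Csk* and *Ptprc* 9 each, *Lck* 6, *Lcp2* and *Cd5* 4 each, *Lat* and *Cd6* 3 each, and *Zap70* 2. The median was 4 peaks per gene, against 2 over all coding genes. Of the 51 peaks, 13 lay at own starts, 16 in introns, 14 upstream and 6 downstream of the genes, and 2 at the start of a neighbouring gene.

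**Figure D1:**
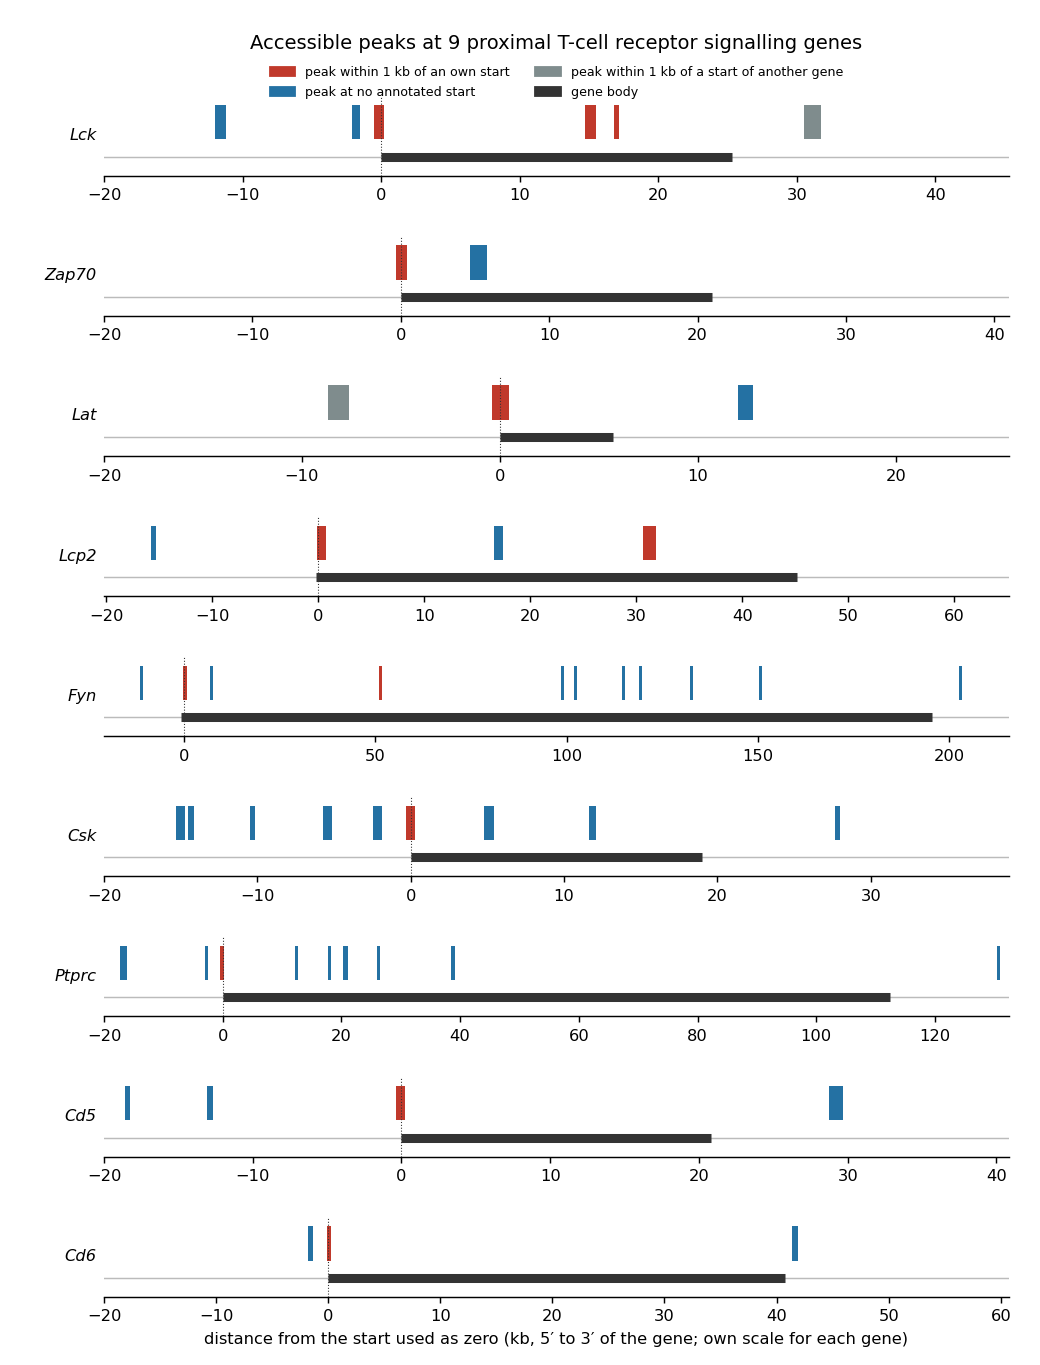
Positions of the 51 peaks (upper bars) relative to each gene body (black bar), in kb from a start of the gene and read in the direction of transcription, with a separate scale for each gene. Bars narrower than the line width are drawn wider than they are. All 9 genes have a red own-start peak, and *Csk* has 5 further peaks upstream of the one at its start.

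The sequence just before the starts is shown because the peaks of most of these genes differed in base composition from those at most promoters, as described further on. Each stretch is the 150 bases before an annotated coding start, 5′ to 3′ on the strand of the gene, read from the NCBIM37 (mm9) genome. Capitals mark the cores searched on both strands, which were TGGGAA and its degenerate form TGAGAA (bound by RBPJ, the former also by Ikaros), AGGAAG and CGGAAG (ETS factors), TGTGGT (RUNX), CAGCTG (E proteins), CTTTGA (TCF/LEF), AGATAA (bound by the GATA family) and GGGCGG (SP factors). A core is a match of letters and not a bound site, and neighbouring cores can overlap, as CGGAAG and AGGAAG share 5 letters. The stretches lie at chr4:129250886-129251035 and chr4:129235636-129235785 for *Lck*, chr1:36818545-36818694 for *Zap70*, chr7:133513058-133513207 for *Lat*, chr10:39089420-39089569 for *Fyn*, chr9:57493461-57493610 for *Csk*, chr1:140071883-140072032 for *Ptprc*, chr19:10813465-10813614 for *Cd5* and chr19:10904549-10904698 for *Cd6*. *Zap70*, *Lcp2* and *Fyn* are on the plus strand and the other members on the minus strand.
Lck distal start: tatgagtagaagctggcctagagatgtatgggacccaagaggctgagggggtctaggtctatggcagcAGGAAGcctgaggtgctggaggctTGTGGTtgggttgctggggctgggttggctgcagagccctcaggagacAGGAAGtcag
Lck proximal start: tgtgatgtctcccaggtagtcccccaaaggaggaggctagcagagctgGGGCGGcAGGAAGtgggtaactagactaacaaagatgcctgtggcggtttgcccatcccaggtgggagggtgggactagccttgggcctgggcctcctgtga
Zap70: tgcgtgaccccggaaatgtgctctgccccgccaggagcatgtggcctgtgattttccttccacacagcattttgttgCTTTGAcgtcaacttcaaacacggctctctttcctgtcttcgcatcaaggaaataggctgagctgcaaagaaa
Lat: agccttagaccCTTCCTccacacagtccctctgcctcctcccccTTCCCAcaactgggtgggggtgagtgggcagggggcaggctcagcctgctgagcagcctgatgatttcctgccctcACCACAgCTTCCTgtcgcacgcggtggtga
Fyn: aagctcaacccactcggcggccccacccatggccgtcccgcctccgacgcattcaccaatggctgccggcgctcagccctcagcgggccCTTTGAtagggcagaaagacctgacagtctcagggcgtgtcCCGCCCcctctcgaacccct
Csk: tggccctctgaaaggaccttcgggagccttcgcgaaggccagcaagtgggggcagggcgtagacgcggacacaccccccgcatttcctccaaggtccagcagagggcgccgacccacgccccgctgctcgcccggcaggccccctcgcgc
Ptprc: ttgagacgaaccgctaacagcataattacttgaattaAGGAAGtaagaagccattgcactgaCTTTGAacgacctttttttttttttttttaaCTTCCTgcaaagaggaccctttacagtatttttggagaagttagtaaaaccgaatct
Cd5: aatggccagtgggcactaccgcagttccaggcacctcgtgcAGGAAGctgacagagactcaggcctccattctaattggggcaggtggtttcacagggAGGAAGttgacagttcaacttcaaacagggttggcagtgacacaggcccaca
Cd6: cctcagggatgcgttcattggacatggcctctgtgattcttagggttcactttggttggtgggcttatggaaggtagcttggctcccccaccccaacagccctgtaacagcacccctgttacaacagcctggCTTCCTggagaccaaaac
Each stretch lay inside an own-start peak over all 150 bases, except that of *Cd6*, of which 149 bases did. The ETS core AGGAAG stood in the stretches of *Lck* (both starts), *Lat*, *Ptprc*, *Cd5* and *Cd6*. In *Lck* it lay 10 to 5 bases before the distal start and 95 to 90 before the proximal one, in *Lat* 23 to 18, in *Cd6* 18 to 13, in *Ptprc* 57 to 52 and in *Cd5* 52 to 47 bases before the start, and *Lck* (distal), *Lat*, *Ptprc* and *Cd5* held another copy further 5′. With 1 stretch per gene, before the start that most coding transcripts share (the 5′-most where several tie), 6 of the 9 genes held AGGAAG. The same was true of 19.2% of 22372 coding genes, which were counted with or without an own-start peak. The sixth gene was *Fyn*, at its start chr10:39088661, which lay 5′ of the peak that begins at chr10:39089203. That stretch was outside the peak, as was the one counted for *Lcp2*, and the *Fyn* stretch shown held no AGGAAG. *Csk* held none of the 9 cores here, and the SP core GGGCGG stood in the stretches shown before the proximal *Lck* start and before *Fyn*. With 1 stretch per gene as above, 1 of the 9 genes held GGGCGG (*Lck*), against 35.9% of the same 22372 coding genes. The *Fyn* stretch counted there was again the one outside the peak.

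*Lck*, the kinase that starts the cascade, has a distal and a proximal promoter, and both were accessible. The distal start on chromosome 4 lay in a peak of 693 bp (chr4:129250690-129251382) that reached 497 bp upstream and 195 bp downstream of it. The proximal starts lay in a peak of 792 bp (chr4:129235361-129236152), centred 15.1 kb 3′ of the distal start and reaching 517 bp upstream and 274 bp downstream. Thus the 2 peaks were of similar width, and a gap of 14.5 kb without a peak separated them. Another own-start peak of 332 bp (chr4:129233749-129234080) was centred in exon 6 and lay 46 bp from the start of a retained-intron transcript, not of a coding one. Its CpG dinucleotides were at 0.91 of the number its base composition predicts (observed to expected ratio), the highest of the 51 peaks, and it held 5 copies of GGGCGG. Further peaks of 608 and 821 bp lay 1.8 and 11.6 kb upstream. The widest peak of the window, 1281 bp, lay downstream at the start of the histone deacetylase gene *Hdac1*. In all, 8.08% of coding genes had as many peaks as *Lck* or more.

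The second start of a gene was not always accessible. Of the 9 genes, *Lck*, *Zap70* and *Fyn* have more than 1 group of coding starts (starts within 1 kb of each other taken as 1 group), and *Lck* and *Fyn* had peaks at 2 of their groups. Among 5183 coding genes with more than 1 such group, 13.5% had peaks at 2 or more. *Fyn*, the other Src-family kinase of T cells, has 4 groups over 196.5 kb. At its first group, a peak of 1243 bp (chr10:39089203-39090445), the widest of the gene, held 3 starts and reached 875 bp downstream of the one shown. The most 5′ coding start of the group, chr10:39088661, lay outside this peak. A second peak of 950 bp (chr10:39140488-39141437) began 673 bp after the start of a coding transcript in intron 2 and did not cover it. The nearest peaks to the remaining groups, in order along the gene, were 13655 and 8578 bp away.

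The other 9 *Fyn* peaks were between 297 and 561 bp wide, and 7 of them lay in introns of the gene. These included 5 in intron 3 between 99.1 and 132.7 kb from the start shown. Only 0.773% of coding genes had as many peaks as *Fyn* or more. Its window is long, however, at 236.5 kb, and at 4.65 peaks per 100 kb it was matched or exceeded by 27.9% of coding genes. Between the intron 5 peak and the one downstream of the gene, 51.8 kb carried no peak.

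*Zap70*, the kinase recruited to the phosphorylated receptor, had the fewest peaks. A peak of 737 bp (chr1:36818381-36819117) covered its first coding start, reaching 314 bp upstream and 422 bp downstream. A wider peak of 1168 bp (chr1:36823346-36824513) lay in intron 1, 5.2 kb from the start. The second coding start, at chr1:36835847, had no peak nearer than 11334 bp, and the last 35.1 kb of the window had none. With 2 peaks, *Zap70* stood at the background, since 52.7% of coding genes had as many or more.

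*Lat* and *Lcp2* encode the adaptors that Zap70 phosphorylates. The single *Lat* start lay near the middle of a peak of 863 bp (chr7:133512594-133513456), which reached 399 bp upstream and 463 bp downstream. One further peak of 742 bp lay 12.4 kb downstream of the start, and the widest of the window, 1035 bp, lay at the start of the neighbouring gene *Spns1*, a lysosomal transporter gene. In *Lcp2*, a peak of 866 bp (chr11:33946974-33947839) held 2 of the 3 coding starts but began 54 bp after the most 5′ one, so that the 150 bases before that start were outside it. The widest *Lcp2* peak, 1205 bp (chr11:33977793-33978997), covered the start of a short non-coding transcript at exon 12, 31.3 kb into the gene. An intron 3 peak of 850 bp and a peak of 496 bp 15.6 kb upstream made up the rest. All of the *Lcp2* peaks, the upstream one included, also lay inside another annotated gene, *4930469K13Rik*. As many peaks or more were found at 36.0% of coding genes for *Lat* and at 22.8% for *Lcp2*.

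*Csk*, the inhibitory kinase, had the densest window of the 9, with 15.3 peaks per 100 kb, a density reached by 0.416% of coding genes. Of its 9 peaks, 7 formed a run in which each neighbour lay within 5 kb, and the run was picked earlier for this number. It spanned 20764 bp (chr9:57488008-57508771), of which peaks covered 3809 bp. Among 27440 runs in the whole list, including single peaks, 4 had at least 7 peaks. One peak of 688 bp lay in intron 1, 5.1 kb from the single annotated start, one of 569 bp (chr9:57493178-57493746) covered the start, and 5 lay upstream at 2.2, 5.4, 10.3 and 14.4 kb and at 15005 bp. The 5 upstream peaks were 599, 574, 390, 377 and 612 bp wide, in order of distance. The gaps ranged from 160 bp, between the outer pair, to 4482 bp, between the intron and the start peak. No start of another gene lay within 1 kb of any of the 7. The outermost peak was 14700 bp from the *Csk* start, and that start was the nearest annotated one to each of them.

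The centres of the 6 run peaks away from the start are shown to compare their sequence, as the middle 80 bases on the *Csk* strand with cores in capitals as above. In order from the intron outwards they lie at chr9:57488312-57488391, chr9:57495574-57495653, chr9:57498853-57498932, chr9:57503737-57503816, chr9:57507772-57507851 and chr9:57508426-57508505.
Csk intron 1: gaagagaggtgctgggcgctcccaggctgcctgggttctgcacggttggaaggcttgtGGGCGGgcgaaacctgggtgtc
Csk 2.2 kb upstream: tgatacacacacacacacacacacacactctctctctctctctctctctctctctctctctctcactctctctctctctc
Csk 5.4 kb upstream: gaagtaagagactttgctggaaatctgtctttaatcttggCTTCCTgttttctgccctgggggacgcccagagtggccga
Csk 10.3 kb upstream: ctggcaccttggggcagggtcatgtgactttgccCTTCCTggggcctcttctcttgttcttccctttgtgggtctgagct
Csk 14.4 kb upstream: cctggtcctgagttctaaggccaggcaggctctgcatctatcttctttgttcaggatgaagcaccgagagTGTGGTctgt
Csk outermost peak: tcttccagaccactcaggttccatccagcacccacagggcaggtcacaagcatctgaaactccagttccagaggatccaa
The peak 2.2 kb upstream was centred on a run of CA and CT dinucleotides, a repeat that occurs in many places of the genome and to which short reads can be assigned ambiguously. No core was present in all 7 peaks of the run. Over their whole widths, TGGGAA was found in 4 of the 7, against 42.5% of all peaks, and AGGAAG in 5 of the 7, against 63.8%. The peak at the start differed from the other 6 in base composition, with a GC content of 70.8% and a CpG ratio of 0.73, against 48.7 to 57.8% and 0.09 to 0.41. The run depended on the joining distance. The group that held the *Csk* start comprised 3 peaks when only peaks within 3 kb were joined and 9 when those within 10 kb were.

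*Ptprc*, which encodes CD45, also had 9 peaks, as many as 1.80% of coding genes had or exceeded. Its window of 152.4 kb gave 5.90 peaks per 100 kb, a density reached by 20.1% of coding genes. A peak of 783 bp (chr1:140071603-140072385) covered both coding starts and reached 503 bp upstream and 279 bp downstream. The gene body held 5 further peaks between 416 and 714 bp, all in intron 2 between 12.4 and 38.8 kb from the start. The remaining 91.2 kb up to the peak downstream of the gene, which take in the exons 3 to 46 of the longest transcript, carried no peak. Upstream peaks of 405 and 1026 bp lay 2.7 and 16.7 kb away, the latter the widest of the gene.

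*Cd5* and *Cd6* encode related receptors of the scavenger receptor cysteine-rich family. They lie near each other on chromosome 19, with the coding gene *A430093F15Rik* between them. The *Cd5* start lay in a peak of 589 bp (chr19:10813217-10813805) reaching 341 bp upstream and 247 bp downstream, and the gene body held no other peak. Upstream peaks of 380 and 352 bp lay 12.9 and 18.4 kb from the start. Both were inside *A430093F15Rik*, whose start was nearer to them, at 10707 and 16260 bp, than the *Cd5* start, at 12680 and 18233 bp. The widest, 987 bp, lay beyond the 3′ end inside *Vps37c*. The 4 coding starts of *Cd6* lay in a peak of 367 bp (chr19:10904331-10904697), the narrowest peak at a coding start of the 9 genes. A peak of 373 bp lay 1.6 kb upstream, and one of 511 bp lay just beyond the 3′ end, leaving 41.2 kb without a peak between the 3′ end and the start. As many peaks or more were found at 22.8% of coding genes for *Cd5* and at 36.0% for *Cd6*.

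**Figure D2:**
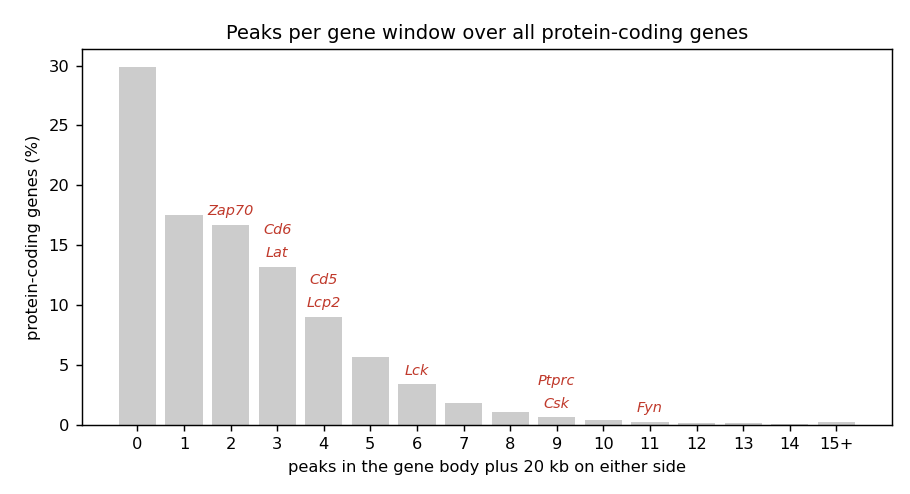
Share of the 22380 protein-coding genes (bars, %) with each number of peaks in the gene body plus 20 kb on either side, with the 9 genes named above the bar of their own number. *Fyn*, *Csk* and *Ptprc* lie at 9 or more peaks and *Zap70* at 2, the median of all coding genes.

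The peaks of the windows farthest from a gene body lay 18.2 kb from *Cd5* and 18.0 kb from *Ptprc*, and the nearest peaks left out lay 21.4 kb from *Csk* and 22.6 kb from *Lat*. For own starts, the farthest peak counted was the 673 bp one of *Fyn*, and the nearest not counted were 1390 bp from *Cd6* and 1510 bp from *Lck*. With the start required inside the peak, all 9 genes still had an own-start peak, against 44.0% of coding genes. Without the peaks shorter than 500 bp, 8 of 9 did, against 43.8%, the exception being *Cd6*.

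Peak width was considered next. The 51 peaks had a median width of 569 bp, with a range of 297 to 1281 bp, against a median of 551 bp over all peaks. The 13 own-start peaks had a median of 783 bp, against 870 bp for own-start peaks of all coding genes. The 36 peaks over 1 kb from every annotated start had a median of 529.5 bp, against 465 bp for all such peaks. By gene the median ran from 373 bp in *Cd6* to 952.5 bp in *Zap70*. Width reflects how the caller joined signal as well as the accessible stretch, and it is not a level of accessibility.

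**Figure D3:**
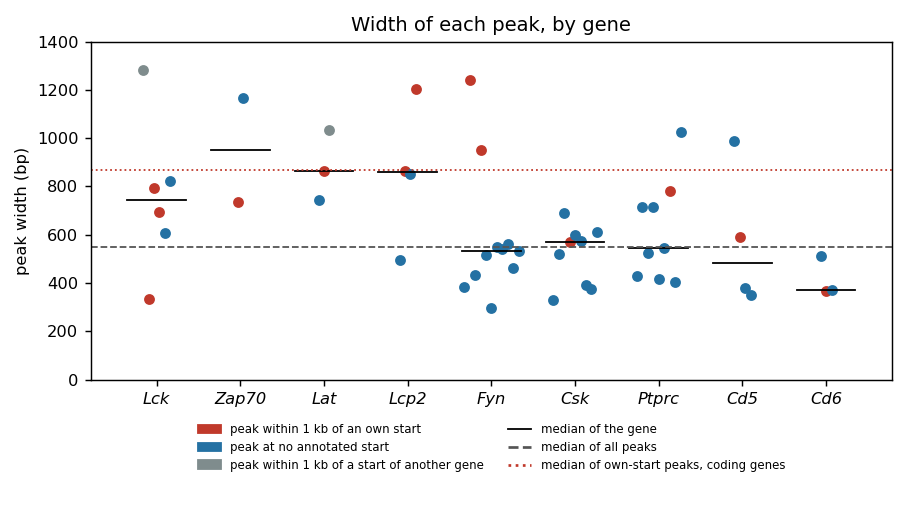
Width in bp of each of the 51 peaks (points, in chromosome order within a gene), coloured by position, with the median of each gene (black lines), of all peaks (dashed, 551 bp) and of own-start peaks of coding genes (dotted, 870 bp). *Fyn*, *Csk*, *Ptprc*, *Cd5* and *Cd6* hold narrow peaks outside their starts, and the start peak of *Cd6* is its narrowest. The widest peak of *Zap70*, *Csk*, *Ptprc*, *Cd5* and *Cd6* is not at a start.

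Most starts of the 9 genes lay in peaks poor in CpG. A peak was called CpG-rich when its GC content was 50% or more and its CpG ratio, observed to expected, was 0.6 or more. Of the 9 genes, 3 (*Lck*, *Fyn* and *Csk*) had a CpG-rich own-start peak, against 80.6% of all coding genes with an own-start peak. For *Lck* this was the exon 6 peak near a non-coding transcript. At coding starts alone only *Fyn* and *Csk* did, 2 of 9, against 81.5%. The peak at the first *Fyn* start group had a GC content of 69.3% and a CpG ratio of 0.79. The ratios at the other coding starts were 0.30 and 0.26 at the distal and proximal *Lck* starts, 0.29 at *Zap70*, 0.34 at *Lat*, 0.21 at *Lcp2*, 0.23 in the peak near the second *Fyn* group, 0.30 at *Ptprc*, 0.20 at *Cd5* and 0.27 at *Cd6*. They were all below 0.4, so that no peak at these starts was near the threshold. GC content itself varied among them, from 39.2% at *Ptprc* to 64.3% at *Lat*.

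**Figure D4:**
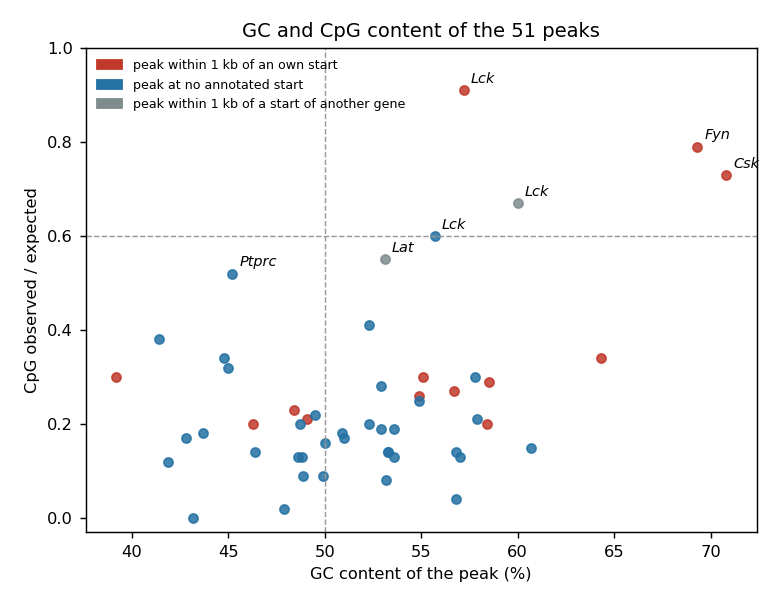
GC content (%) against the observed to expected CpG ratio of each of the 51 peaks, coloured by position, with the thresholds for CpG-rich peaks (dashed lines at 50% and 0.6) and gene names at ratios of 0.5 or more. The own-start peaks in the upper right are those of *Fyn*, *Csk* and the exon 6 peak of *Lck*, and the other 10 own-start peaks lie at ratios of 0.34 or below.

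The motif cores in the peaks followed this composition. The SP core GGGCGG, which contains a CpG, was present in 5 of the 13 own-start peaks, against 79.4% of own-start peaks of all coding genes, and in 14 of all 51 (27.5%, 95% Wilson interval 17.1 to 40.9%), against 38.7% of all peaks. The CpG-containing ETS core CGGAAG was present in 2 of the 13, against 52.5%, and in 9 of the 51, against 25.9%. Both were lower at own starts but not in the 36 peaks over 1 kb from every start, where GGGCGG was present in 22.2% (11.7 to 38.1%), against 17.9% of all such peaks, and CGGAAG in 16.7% (7.87 to 31.9%), against 12.3%. By contrast, the ETS core without a CpG, AGGAAG, was present in all 13 own-start peaks, against 65.9%. It was present in 42 of the 51 (82.4%, 69.7 to 90.4%), against 63.8%. Of the 36 peaks over 1 kb from every start, 27 held it (58.9 to 86.2%), against 62.9% of all such peaks. That share lay inside the interval. These intervals cover counting error only, and peaks of 1 gene are not independent.

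The core of RBPJ, the DNA-binding partner of Notch, was also counted. TGGGAA was present in 30 of the 51 peaks (58.8%, 45.2 to 71.2%), against 42.5% of all peaks. Of the 13 own-start peaks 9 held it (69.2%, 42.4 to 87.3%), against 48.9%, a share inside the interval. With the degenerate form TGAGAA allowed as well, 42 of the 51 peaks held a core (82.4%), against 62.5%. When only the central 200 bp of each peak were searched, TGGGAA was present in 9 of the 51 (17.6%, 9.57 to 30.3%), against 15.3% of all peaks, so the difference lay within the counting interval there. With either form allowed, the central 200 bp held a core in 33.3% (22.0 to 47.0%), against 26.9%, also within the interval. AGGAAG in the central 200 bp remained more frequent in the 51 peaks, at 47.1% (34.1 to 60.5%) against 32.6%. Head-to-head pairs of RBPJ cores separated by 15 to 17 bases, the arrangement at which 2 complexes can bind together, were found in 0 of the 51 peaks and in 58 of all 32527 (0.178%).

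All 4 peaks of *Lcp2* and all 4 of *Cd5* held TGGGAA, as did both of *Zap70*, 4 of the 6 of *Lck*, 5 of the 9 of *Ptprc*, 4 of the 9 of *Csk*, 4 of the 11 of *Fyn*, 2 of the 3 of *Cd6* and 1 of the 3 of *Lat*. It occurred once in 18 peaks, at 2 places in 9 peaks and at 3 places in 3 peaks. These 3 peaks were the distal *Lck* start peak, the *Zap70* intron 1 peak and the *Lcp2* intron 3 peak. A part of the *Zap70* peak and of the *Lcp2* peak that holds 2 copies within 120 bases is shown. These parts are on the strand of the gene at chr1:36824394-36824513 and chr11:33963790-33963909, with TGGGAA on either strand in capitals.
Zap70 intron 1: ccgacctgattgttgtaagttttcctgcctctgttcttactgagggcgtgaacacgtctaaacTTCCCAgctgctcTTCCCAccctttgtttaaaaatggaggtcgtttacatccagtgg
Lcp2 intron 3: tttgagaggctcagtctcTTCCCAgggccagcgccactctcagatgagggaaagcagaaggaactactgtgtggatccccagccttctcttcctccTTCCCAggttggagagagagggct
In both stretches the cores pointed the same way, with their starts 13 bases apart in *Zap70* and 78 bases apart in *Lcp2*. Whether RBPJ binds there was not measured by ATAC-Seq.

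For the other factor families of T cells, TGTGGT (RUNX) was present in 27 of the 51 peaks (52.9%, 39.5 to 65.9%), against 41.4%, CAGCTG (E proteins) in 25 (49.0%, 35.9 to 62.3%), against 42.7%, CTTTGA (TCF/LEF) in 22 (43.1%, 30.5 to 56.7%), against 33.2%, and AGATAA (the core of GATA factors) in 9 (17.6%, 9.57 to 30.3%), against 20.2%. For E proteins, TCF/LEF, RUNX and GATA the share of all peaks lay inside the counting interval. In the central 200 bp, RUNX and TCF/LEF cores stood in 33.3% (22.0 to 47.0%) and 25.5% (15.5 to 38.9%) of the 51 peaks, against 19.9 and 13.1% of all peaks, both outside the interval. E-protein cores stood there in 25.5% (15.5 to 38.9%), against 21.3%, and GATA cores in 7.84% (3.09 to 18.5%), against 6.87%, both inside it. The central 200 bp were searched for these cores only after the data had been seen.

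**Figure D5:**
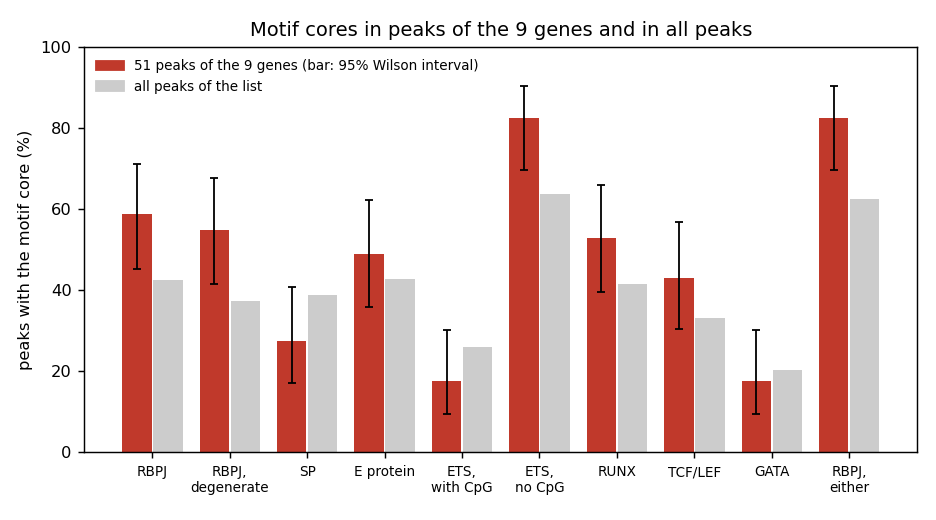
Share (%) of the 51 peaks of the 9 genes (red, with 95% Wilson intervals) and of all 32527 peaks (grey) that hold each motif core on either strand over the whole peak. The ETS core without a CpG and the RBPJ cores stand above all peaks, and both CpG-containing cores stand below them, with the SP and CpG-containing ETS intervals reaching the share of all peaks.

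Further genes of the pathway were examined as a list of 24, made of kinases, adaptors, phosphatases and co-receptors that act beside the 9. Of the 24, 22 had an own-start peak (91.7%), with a median of 4.50 peaks per window, and the exceptions were the adaptor gene *Grap2* and *Ubash3b*. The adaptor gene *Grb2* and the kinase gene *Prkcq* had 9 peaks each in their windows, and *Sla* had 8. Among the 22, 11 had a CpG-rich own-start peak, against 3 of the 9 and 80.6% of all coding genes with an own-start peak. Relatives of the 9 that serve mainly in other cells formed a second list of 15, of which 6 had an own-start peak, against 46.9% of all coding genes. These were *Src*, *Yes1* and *Fgr* of the Src family, the Csk relative *Matk*, and the receptor phosphatases *Ptpra* and *Ptprj*. Those without one included the B-cell and myeloid relatives *Lyn*, *Blk*, *Syk*, *Lat2* and *Blnk*, as well as *Clnk*, *Cd5l* and *Cd163*.

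The labelled cell type was checked in the same way. Over all coding genes, 46.9% had an own-start peak. Of 11 progenitor T-cell markers, 10 had one, among them *Cd3e*, *Ptcra*, *Rag1*, *Tcf7* and *Bcl11b*, while *Cd3d* had 6 peaks in its window but none at its start. Among those 10, 7 had CpG-poor own-start peaks only, whereas 80.6% of all coding genes with an own-start peak had a CpG-rich one. Of the B-cell markers, 0 of 6 had an own-start peak, of the NK markers 0 of 2, of the myeloid markers 1 of 5 (*Spi1*), and of the erythroid markers 3 of 3. Accessibility of a start is not expression of the gene, and the list does not tell cells apart.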

How the data were processed

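ATAC-Seq was performed in 6 Beko libraries, 3 with GSI and 3 with DMSO, grouped by their labels. Per the study's methods and processing notes, the authors used HISAT2 2.2.1 for alignment to mm9 with a single alignment per read, Picard for duplicate removal and MACS2 for peak calling, with no input control. Peaks had to occur in 3 of 6 libraries and lie outside blacklisted regions. A shift of read ends for the transposase is not given in the sources used here. The deposited list holds the start and end of the peaks, and the deposited score, 0 for every peak, was not used. Read depth per library was not used here, since no value depends on it.

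Starts were taken as counted from 0 and are printed counted from 1. The NCBIM37 genome, the same build as mm9, and GENCODE vM1 were used. All peaks lay within its chromosomes. *Syk* and *Spi1* were found under older symbols, with RefSeq gene names. Introns and exons were taken from the longest coding transcript at the centre of the peak. Runs joined peaks within 5 kb edge to edge. Shares have 95% Wilson intervals. No test was made, since the list is merged. Python 3.11.15, numpy 2.4.6, scipy 1.17.1 and matplotlib 3.10.9 were used. On simulated data, made of random peaks placed around 200 annotated genes of chromosome 1 and of 200 random sequences, all counts were right. The members and lists were chosen with earlier results of these data known. Genes and peaks named singly were the 9 members, listed genes, genes starting at or holding a member peak, own-start peaks, the widest peak of each gene, the *Csk* run, and the peaks with most TGGGAA. Other peaks were named after their values were seen.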

Additional observations from a re-analysis of the deposited data

How the results depend on the processing

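No paired analysis was possible because all libraries are merged in 1 list, so that the comparison of GSI with DMSO, the fit with a replicate block, leaving out a replicate and the other count methods were not run. All 9 genes had an own-start peak under each distance and transcript choice tried, from 44.0 to 49.0% of coding genes, and 8 did among peaks of at least 500 bp. The number of peaks fell from 51 to 29 with the gene body only. The run near *Csk* comprised 2 peaks when joined within 2 kb, 3 within 3 kb and 4 among peaks of at least 500 bp, in place of 7. The median width was 714 bp among peaks of at least 500 bp, which leaves out narrow peaks by construction. The share with TGGGAA was 17.6% in the central 200 bp and 82.4% with TGAGAA allowed, against 58.8%. The median number of peaks per window was 10 with a flank of 50 kb, against 3 over coding genes, and 5.90 per 100 kb against 2.31. The cause of these shifts was not tested where the alternative itself does not set it. The central 200 bp for the other cores, coding starts alone for the CpG class and leaving out *Csk* were chosen after seeing the data. Without *Csk*, 42 peaks had a median width of 575 bp, 61.9% held TGGGAA, and the median was 4 peaks per window. A list merged over libraries limits every value to presence and position, so that a missing peak shows only that none passed in 3 libraries.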
